A study of Saccharomyces cerevisiae BY4741 with 5 samples.

Results

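The genes described here act at successive steps of ubiquitin-dependent protein degradation in *Saccharomyces cerevisiae* and were chosen by name: *UBI4*, *UBC4*, *UBC5*, *RSP5*, *CDC48* and *RPN4*. They are 6 of the 5090 transcripts in the count table, and all 6 were found there. CRAC (cross-linking and analysis of cDNA) uses ultraviolet light to join a tagged protein to the RNA it touches in living cells, after which the RNA fragments that stay on the purified protein are sequenced and counted. The protein was Ssd1, an RNA-binding protein, tagged at its C-terminus with HTP (a His run, a TEV cleavage site and Protein A) at its own locus in the BY4741 background. Its gene was followed by the *Kluyveromyces lactis* *SSD1* 3′ untranslated region and a *URA3* cassette. Ssd1–HTP clones 3 and 4, independent transformants, were each grown exponentially in synthetic medium without tryptophan at 30°C. By the study's methods, the 30°C cultures were cross-linked straight from growth. Those for heat shock were collected on filter membranes and moved to medium pre-warmed to 42°C for 16 min. Filtration and the change of medium thus went with temperature in every 42°C library and cannot be told apart from it. Each clone gave 1 library per temperature, and the untagged parent BY4741 gave 1 control library at 30°C only. There is thus no untagged library after heat shock.

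Ubiquitin is a small protein that is joined in chains to other proteins and marks them for the proteasome. An E1 enzyme activates it, an E2 enzyme carries it and an E3 ligase directs it to a substrate, and the proteasome then unfolds and degrades the marked protein. Heat unfolds proteins, and yeast is known to raise the capacity of this system in stress. *UBI4* encodes a polyubiquitin precursor, a head-to-tail string of ubiquitin copies that is known as a stress-induced source of ubiquitin. *UBC4* and *UBC5* encode closely related E2 enzymes that act on short-lived and abnormal proteins. *RSP5* encodes an E3 ligase of the HECT class that acts on plasma membrane proteins and, after heat, on misfolded cytosolic proteins. *CDC48* encodes an ATPase that pulls ubiquitin-marked proteins out of complexes and membranes. *RPN4* encodes a short-lived transcription factor of proteasome genes that is itself degraded by the proteasome.

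The Ssd1–HTP libraries held between 111824 and 413502 counts and the control held 3921. The control therefore cannot show a share below 3 of its counts, or 765 CPM (a transcript's counts over the library total, times 1e+06), a limit for counting error only. All samples are of BY4741 background, which is of mating type a. The 4 genes listed for that type summed to between 52 and 368 counts in the Ssd1–HTP libraries and the 3 listed for the other type to between 0 and 19, while the control had 0 on both. Of the genes removed from BY4741, *LEU2* and *URA3* had 0 counts in every library (the species of the *URA3* in the tagging cassette is not given in the sources), *MET17* had at most 1, and *HIS3*, of which the strain's allele lacks only a part, had between 1 and 20 in the Ssd1–HTP libraries.

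Together the 6 transcripts took 0.0667% of the counts of clone 3 and 0.143% of those of clone 4 at 30°C. In the untagged control their share was 0.255%, from 10 counts, all on *RSP5* and *RPN4*. The summed share at 30°C was thus not above that of the control in either clone. At 42°C the 6 transcripts took 0.707% and 0.614%, so that both libraries at 42°C lay above both at 30°C. Most of this difference lay in *UBI4*, *UBC4* and *RPN4*. *CDC48* differed less, and *UBC5* and *RSP5* overlapped between the temperatures. The temperatures were compared by the quasi-likelihood test of edgeR, with TMM factors and with Benjamini-Hochberg adjustment over the 2837 transcripts whose counts averaged 10 or more over the 4 Ssd1–HTP libraries. All 6 passed this minimum, *UBC5* with a mean count of 20.0. The test called 2 of the 6 higher at 42°C, *UBI4* and *UBC4*, and 0 lower. Of all transcripts tested, 3.81% were called higher and 3.45% lower, 7.26% in all. The normalized counts of 4 of the 6, *UBI4*, *UBC4*, *CDC48* and *RPN4*, were higher in both libraries at 42°C than in either at 30°C, which was so for 29.4% of all transcripts tested. For 24.3% of all transcripts, and 0 of the 6, both libraries at 42°C lay below both at 30°C. A normalized count is a share of its library, so it follows the make-up of the RNA bound and not its amount. The study set its CRAC reads beside RNA-seq of the untagged strain in matched conditions, which was not used here. Levels of mRNA were thus not analysed. From these counts alone, more Ssd1 on a transcript cannot be told apart from more of that transcript in the cell.

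**Figure D1:**
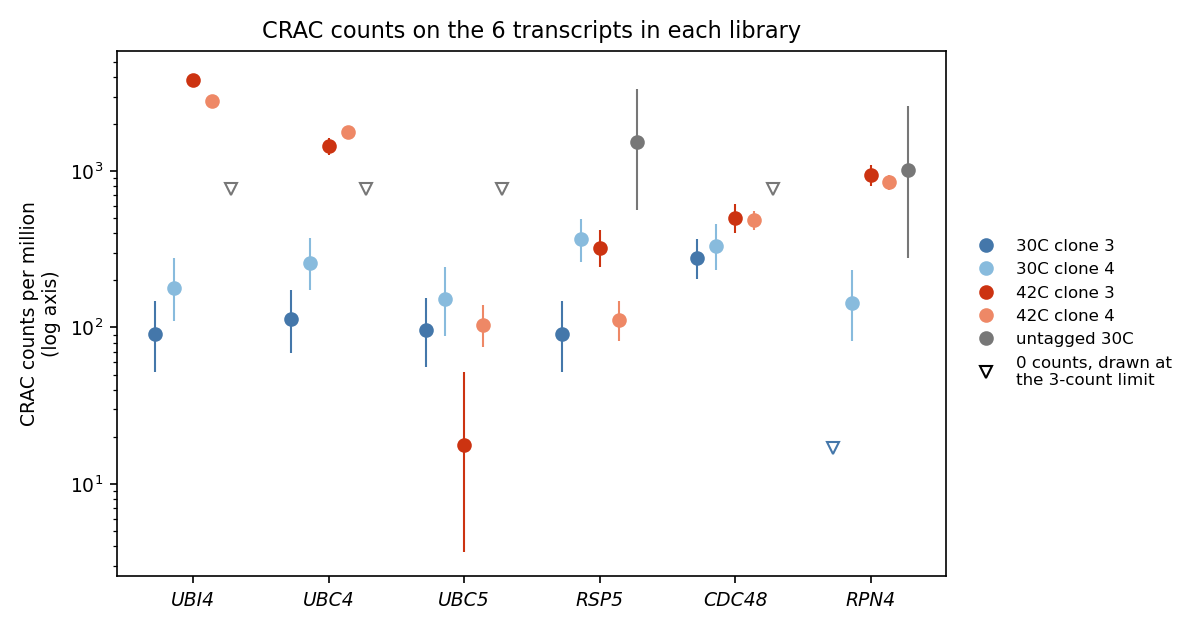
CRAC counts in CPM (log axis) on each of the 6 transcripts in the 5 libraries. Points are single libraries, bars are exact Poisson 95% intervals for counting error, and open triangles are libraries with 0 counts, drawn at the limit of 3 counts. The 42°C points of *UBI4* and *UBC4* stand far above those at 30°C. For *RSP5* and *RPN4* the untagged library, with 6 and 4 counts, stands above all 4 Ssd1–HTP libraries.

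*UBI4* (YLL039C) is counted on chromosome XII, 63943 to 65304 (build sacCer3, as for all positions given), on the minus strand, an interval of 1362 nt with a 5′ untranslated region of 97 nt. It had 16 counts in clone 3 and 20 in clone 4 at 30°C. At 42°C it had 650 and 1164, and the control had 0. In shares this was 90.4 and 179 CPM at 30°C, and 3834 and 2815 CPM at 42°C. Both libraries at 42°C were thus far above both at 30°C, and by number of counts *UBI4* moved from ranks 1804 and 922 to ranks 35 and 54 of all transcripts. The log2 fold change was 4.73 (standard error 0.51, n = 2 libraries per temperature, adjusted p = 0.00284 from edgeR), or 26.5-fold. The call was kept in each of the 11 alternatives run, with log2 fold changes of 4.28 to 5.26. The interval shares 70 nt at its 5′ end with that of *ENT4* on the same strand, where a read may be counted on both, and *ENT4* had 17, 7, 41 and 157 counts in the same order of libraries.

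Yeast has 3 other ubiquitin genes, *RPL40A*, *RPL40B* and *RPS31*, in which ubiquitin is fused to a ribosomal protein and which supply it during growth. These had many counts at 30°C, where *UBI4* had few, and the order was turned at 42°C. *RPS31* (YLR167W) had 392 and 195 counts at 30°C and 57 and 158 at 42°C, and was called lower (log2 fold change -2.36, standard error 0.45, edgeR adjusted p = 0.0192). In the control *RPS31* had 8 counts, or 0.204% of all counts there. Its share was 0.222% and 0.174% at 30°C, level with the control, and 0.0336% and 0.0382% at 42°C. Without the 30°C library of clone 4 its adjusted p was 0.0527 (edgeR). *RPL40B* (YKR094C) had 183 and 158 counts at 30°C and 8 and 110 at 42°C, which gave -2.75 on the log2 scale (standard error 0.78, edgeR adjusted p = 0.0758). With the clones as a replicate block *RPL40B* was called lower (log2 fold change -3.21, adjusted p = 3.77e-04 from edgeR). It was also called with library totals, with a mean count of at least 50, without a count minimum and by DESeq2, but not with RLE size factors. Its value moved widely with a library left out, from -4.67 without the 42°C library of clone 4 (edgeR adjusted p = 0.00727, called) to -1.96 without that of clone 3 (edgeR adjusted p = 0.0752, not called). It was called without the 30°C library of clone 3 (edgeR adjusted p = 0.0123) and not without that of clone 4 (edgeR adjusted p = 0.191). *RPL40A* (YIL148W) had 126 and 91 counts at 30°C and 30 and 153 at 42°C, which gave -1.33 on the log2 scale (standard error 0.57, edgeR adjusted p = 0.237). It was called lower only with a mean count of at least 50 (edgeR adjusted p = 0.0378), which called 149 higher and 141 lower of 660 transcripts.

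Of the counts on the 4 ubiquitin transcripts, *UBI4* held 2.23% in clone 3 (exact Clopper-Pearson 95% interval 1.28 to 3.60%) and 4.31% in clone 4 (2.65 to 6.58%) at 30°C. At 42°C it held 87.2% (84.6 to 89.6%) and 73.4% (71.2 to 75.6%). The mean share went from 3.27% ± 1.47 (SD, n = 2) to 80.3% ± 9.77 (SD, n = 2), a gap many times the spread between the libraries. Permuting the 4 libraries exactly gave a two-sided p = 0.333, the smallest p that the design allows. Per nucleotide of transcript, the means were 1.75% and 68.7%. In the control, 0 of the 10 counts on the 4 transcripts were on *UBI4*, 8 were on *RPS31* and 1 each on *RPL40A* and *RPL40B*. Summed, the 4 transcripts took 0.405% and 0.415% of all counts at 30°C and 0.439% and 0.383% at 42°C. The means were 0.410% ± 0.00691 and 0.411% ± 0.0397 (SD, n = 2 each, exact two-sided permutation test, p = 1.0). This sum was looked at after the values were seen, and a permutation of 4 libraries cannot show that the sums are equal. The coding sequences of the 4 genes are alike, and those of the copies within *UBI4* are too, and the treatment of reads that match several places is not given in the sources, so the division between the genes is uncertain to that degree.

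**Figure D2:**
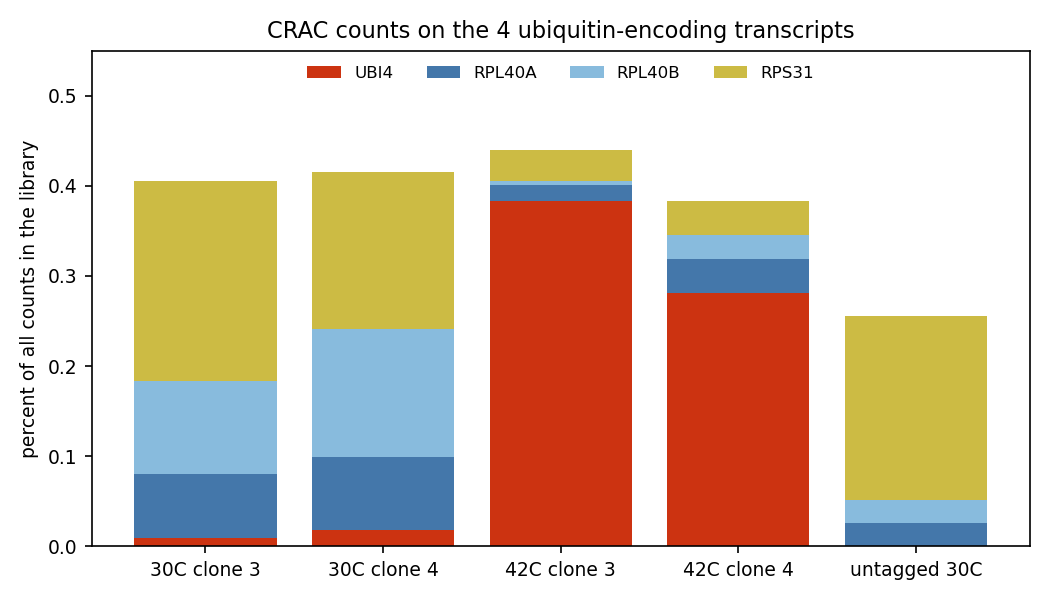
Percent of all counts of each library that fell on the 4 ubiquitin-encoding transcripts, stacked by gene, in the 5 libraries. The bars of the Ssd1–HTP libraries are of like height, between 0.383% and 0.439%, while *UBI4* makes up 2.23% and 4.31% of the bar at 30°C and 87.2% and 73.4% at 42°C. The untagged bar rests on 10 counts, 8 of them on *RPS31*.

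The E2 genes *UBC4* and *UBC5* had similar counts at 30°C and parted at 42°C. *UBC4* (YBR082C, chromosome II, 406461 to 407255, minus strand, 5′ untranslated region of 86 nt) was counted 20 and 29 times at 30°C, then 245 and 736 times at 42°C, and 0 times in the control. As shares these were 113 and 259 CPM at 30°C, and 1445 and 1780 CPM at 42°C, with no overlap between the temperatures. Its log2 fold change was 3.25 (standard error 0.56, n = 2, adjusted p = 0.0148 from edgeR), or 9.49-fold. It was called in 10 of 11 alternatives, the exception being the threshold of 0.01. The fold was 15.2 without the 30°C library of clone 4 and 6.60 without that of clone 3, the highest and lowest of the alternatives. *UBC5* (YDR059C, chromosome IV, 569124 to 569816, minus strand, 5′ untranslated region of 46 nt) had 17 counts in each clone at 30°C, then 3 and 43 at 42°C, with 0 in the control. In CPM it stood at 96.1 and 152 at 30°C, and at 17.7 and 104 at 42°C, so the groups overlapped. Its log2 fold change was -0.82 (standard error 1.16, adjusted p = 0.809 from edgeR), with a range from -2.75 without the 42°C library of clone 4 to -0.01 without that of clone 3.

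Of the counts on the pair, *UBC5* held 45.9% in clone 3 (exact Clopper-Pearson 95% interval 29.5 to 63.1%) and 37.0% in clone 4 (23.2 to 52.5%) at 30°C. At 42°C it held 1.21% (0.250 to 3.49%) and 5.52% (4.02 to 7.36%). The intervals at 42°C lay below both intervals at 30°C, and the means were 41.5% ± 6.36 and 3.36% ± 3.05 (SD, n = 2 each, exact two-sided permutation test, p = 0.333, the smallest possible). The share was similar per nucleotide of transcript, with means of 44.8% and 3.83%. Reads of the 2 genes may be confused where their coding sequences match, and the pair summed had 37 and 46 counts at 30°C and 248 and 779 at 42°C. In the untagged library the pair had 0 counts.

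*RSP5* (YER125W, chromosome V, 409704 to 413011, plus strand) has the longest 5′ untranslated region of the 6, 485 nt. At 30°C 16 and 41 of its fragments were counted, at 42°C 55 and 46, and in the control 6. In CPM this was 90.4 and 367 at 30°C, and 324 and 111 at 42°C. The clones went opposite ways: the normalized count at 42°C was 3.49 times that at 30°C in clone 3 and 0.352 times in clone 4, a difference that was not tested because each clone gave 1 pair. The log2 fold change was -0.01 (standard error 0.86, adjusted p = 0.999 from edgeR), and its sign differed among the alternatives. By density (TPM, which divides by transcript length) *RSP5* was at 83.7 ± 71.8 at 30°C and 79.5 ± 58.0 at 42°C (SD, n = 2 each).

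*CDC48* (YDL126C, chromosome IV, 236081 to 238708, minus strand, 5′ untranslated region of 44 nt) was counted 49 and 37 times at 30°C, 85 and 200 times at 42°C, and 0 times in the control. In CPM these were 277 and 331, and 501 and 484, the smallest spread between clones among the 6. The libraries did not overlap, but the difference of 0.79 on the log2 scale (standard error 0.52, edgeR adjusted p = 0.487) was not called in any of the 11 alternatives, whose values ran from 0.65 to 0.92. Cdc48 works with cofactors, chief among them the pair Ufd1 and Npl4 that recognises ubiquitin chains. *NPL4* had 2 and 3 counts at 30°C and 67 and 51 at 42°C (log2 fold change 3.81, standard error 1.08, adjusted p = 0.0765 from edgeR). DESeq2 called *NPL4* (adjusted p = 0.0339), as did edgeR without a count minimum (adjusted p = 0.0215), but it was not called in the other alternatives that tested it. Without the 42°C library of clone 3 its log2 fold change was 2.93 (adjusted p = 0.718 from edgeR). *UFD1* had 9 and 0 counts at 30°C and 19 and 35 at 42°C (log2 fold change 1.91, standard error 1.68, adjusted p = 0.641 from edgeR). Of the 10 cofactor transcripts tested, 9 had a positive log2 fold change and 0 were called by edgeR, with a median of 1.72 beside 0.13 over all transcripts. Several of the 10 passed the count minimum mainly through their counts at 42°C. Among them *UFD1*, *UBX2*, *UBX5*, *UBX7* and *OTU1* had 0 counts in clone 4 at 30°C. The signs and the median are therefore partly set by that minimum and are no support for a rise. At an unadjusted p under 0.05 there was 1 of the 10. Over all 2837 transcripts, 1510 had a positive value, 577 had an unadjusted p under 0.05 and 7.26% were called.

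*RPN4* (YDL020C, chromosome IV, 414953 to 416939, minus strand, 5′ untranslated region of 231 nt) had 0 counts in clone 3 and 16 in clone 4 at 30°C. At 42°C it had 160 and 351, and the control had 4. In CPM it stood at 0 and 143 at 30°C, and at 944 and 849 at 42°C. The 2 libraries at 42°C were close to each other and well above those at 30°C, which differed widely. The log2 fold change was 3.86 (standard error 1.16, adjusted p = 0.0922 from edgeR) and was not called. With the clones as a replicate block, which compares the paired libraries of each clone, it was 4.55 (standard error 0.89, adjusted p = 1.66e-05 from edgeR) and was called. That p-value leans on the spread of other transcripts, since 4 libraries leave little to measure that of *RPN4* after the block. In clone 4 the normalized count at 42°C was 6.88 times that at 30°C. In clone 3, where none was counted at 30°C, the share at 42°C was at least 55.7-fold higher than a limit of 3 counts. Without the 30°C library of clone 3, *RPN4* was called at 2.72 on the log2 scale (edgeR adjusted p = 0.0218), and DESeq2 on all 4 libraries gave an adjusted p of 0.448. The interval overlaps that of *GPM2* on the other strand by 11 nt, and *GPM2* had at most 22 counts in any library.

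**Figure D3:**
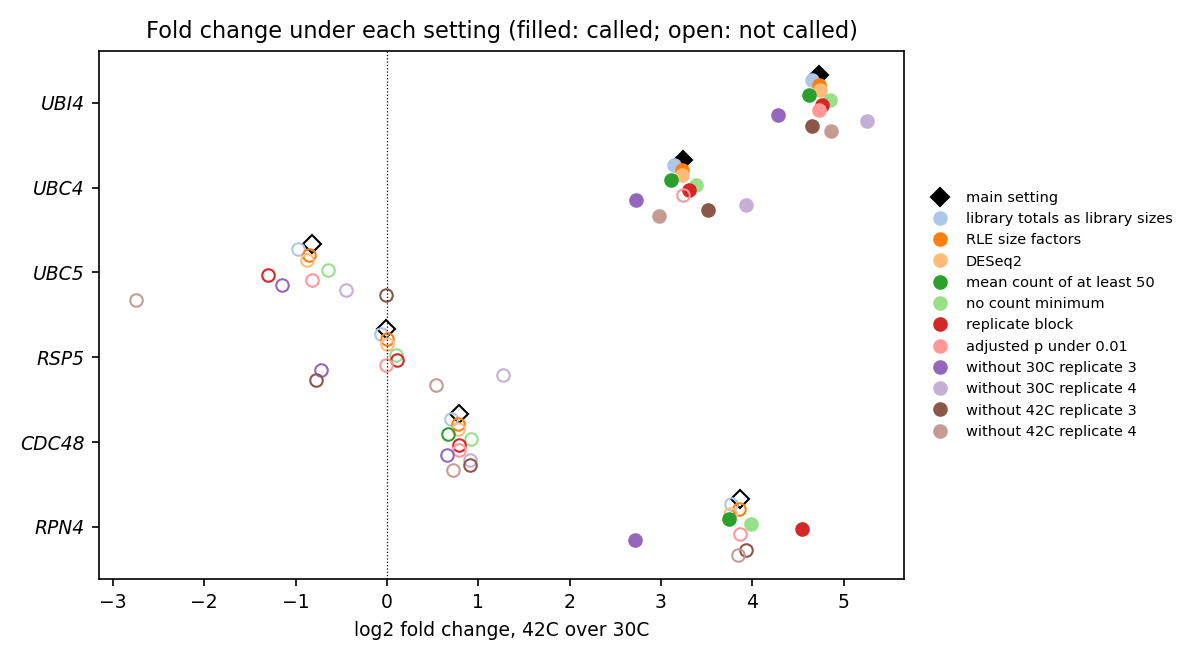
Log2 fold change between 42°C and 30°C of each transcript under the main setting (diamonds) and the alternatives (circles), filled where the transcript was called. *UBI4* lies between 4.28 and 5.26 and is filled throughout, *RPN4* is filled under some settings only, and *RSP5* lies on both sides of 0. The value of *RPN4* without the 30°C library of clone 4 is left out, since the remaining library at 30°C had 0 counts.

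By density, the order at 30°C ran from *UBC4* (283 ± 159 TPM) and *UBC5* (216 ± 70.4 TPM) through *CDC48* (140 ± 18.4 TPM), *UBI4* (120 ± 56.2 TPM) and *RSP5* to *RPN4* (43.7 ± 61.8 TPM; SD, n = 2 each). *UBC5* and *CDC48* differed by slightly more than the larger of their standard deviations, and every other pair of neighbours in that order by less. At 42°C, *UBI4* (2914 ± 771 TPM) and *UBC4* (2400 ± 235 TPM) came first and differed by less than the larger standard deviation. *RPN4* (537 ± 66.5 TPM) and *CDC48* (223 ± 16.6 TPM) followed, each by a step larger than its spread. *UBC5* (102 ± 99.4 TPM) and *RSP5* were last and did not differ beyond theirs.

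The control set a limit on what could be told from background. Counts at each temperature were compared with it in 1 fit of all 5 libraries with library totals as library sizes, in which only the Ssd1–HTP libraries give a spread, the control being 1 library. The comparisons at 30°C and 42°C share that control. At 30°C, 0 of the 5 transcripts that passed the count minimum (all but *RPN4*) were called higher and 0 lower, beside 0.887% and 2.44% of the 2256 transcripts tested. At their mean shares at 30°C, the control's depth would have held 0.528 counts of *UBI4*, 0.730 of *UBC4*, 0.486 of *UBC5* and 1.19 of *CDC48*, so that binding at 30°C was not detectable against this control. At 42°C, *UBI4* alone was called higher (adjusted p = 0.0375 from edgeR) and 0 of the 6 lower, beside 1.15% and 3.15% of the 3046 transcripts tested. Its mean share was at least 4.34-fold above the control set to 3 counts. For *UBC4* the bound was at least 2.11-fold (adjusted p = 0.133 from edgeR, called under TMM with adjusted p = 0.0149). The control was not heated, so tag and temperature cannot be told apart in these comparisons.

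*RSP5* and *RPN4* were the members with counts in the control. The 6 counts of *RSP5* there were 1530 CPM, above the CPM of each Ssd1–HTP library. Its share in the summed libraries at 30°C was 0.129 times that in the control (exact 95% interval 0.0557 to 0.366 for counting error) and at 42°C 0.113 times (0.0502 to 0.316). In the fit *RSP5* was not called lower at 30°C (adjusted p = 0.343 from edgeR) or at 42°C (adjusted p = 0.366 from edgeR). Without the 42°C library of clone 3 it was called lower at 42°C (adjusted p = 0.0305 from edgeR). The 4 counts of *RPN4* in the control were 1020 CPM. Its share at 42°C was 0.859 times this (0.333 to 3.17) and at 30°C 0.0543 times (0.0175 to 0.223), and the fit gave an adjusted p of 0.913 at 42°C from edgeR. These ratios compare the make-up of libraries and leave out the far lower total of the control. The direction of such ratios depends on the scaling: library totals gave 20 transcripts higher and 55 lower at 30°C and 35 higher and 96 lower at 42°C, while TMM gave 77 and 1, and 200 and 3. Under TMM, *RSP5* and *RPN4* were not lower than the control at 42°C, with log2 fold changes of 0.061 and 2.73, and neither was called.

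The other genes of the pathway were taken from 11 lists, which hold 127 transcripts of the table beside the members. Of these, 96 were tested, and at 42°C 0 were called higher and 1 lower, *RPS31* (edgeR). Over all 2837 transcripts tested, 3.81% were called higher and 3.45% lower. Among the 96, 64 had a positive log2 fold change, beside 1510 of the 2837 transcripts tested, and their median was 0.72 beside 0.13. The count minimum is on raw counts, to which the deepest library, clone 4 at 42°C, can add most. Signs and medians of listed transcripts with few counts are thus partly set by it, here and in the lists below. At an unadjusted p under 0.05 there were 7 of the 96, beside 577 of the 2837 transcripts. DESeq2 called 3 higher (*HUL4*, *NPL4* and *RPN11*) and 2 lower (*RPL40B* and *RPS31*), beside 153 higher and 165 lower of all transcripts. Without the 30°C library of clone 3, edgeR called 4 of the listed genes higher (*BLM10*, *HSF1*, *ROD1* and *RPT3*) and 2 lower (*RPL40B* and *RPS31*), beside 193 higher and 121 lower of all transcripts. Among E1 and E2 enzymes, *UBA1*, the E1 enzyme, had the most counts at 30°C, with 41 and 37, and had 89 and 191 at 42°C (log2 fold change 0.90, standard error 0.53, adjusted p = 0.430 from edgeR). *UBC4* had the most at 42°C. Among 12 E3 ligases tested, *RSP5* included, 0 were called. *TOM1*, a HECT ligase, led at 30°C with 30 and 39 counts, and *UBR1*, the ligase of the N-degron pathway, led at 42°C with 117 and 78. *HUL4*, a further HECT ligase, had 1 and 1 counts at 30°C and 48 and 39 at 42°C (log2 fold change 4.65, standard error 1.28, adjusted p = 0.0715 from edgeR). Without the 42°C library of clone 3 these values were 3.85 and an adjusted p of 0.790 (edgeR).

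Rsp5 reaches many substrates through adaptor proteins. Over all 2837 transcripts tested, 7.26% were called and the median log2 fold change was 0.13. Of 16 adaptor transcripts 11 were tested and 0 called, with a median log2 fold change of 0.65. *ECM21*, an arrestin-related adaptor, had the most counts at 30°C (39 and 32) and *BUL1* the most at 42°C (54 and 40). Of 19 deubiquitinases, which remove ubiquitin, 13 were tested and 0 called, with a median of 0.00. *UBP6*, which works on the proteasome, had 15 and 29 counts at 30°C and 48 and 67 at 42°C, the most of the list at 42°C. *UBP13* had the most summed counts at 30°C, 31 and 14, but a lower mean share than *UBP6* there, since the library of clone 3 is the deeper. *DOA1* led the Cdc48 cofactors at 30°C with 23 and 29 counts, and *DSK2*, a shuttle of ubiquitin-marked proteins, had 29 and 2 counts at 30°C and 56 and 48 at 42°C, the most of the shuttle factors at 42°C, and 8 in the control. At 30°C its mean share was level with that of *RAD23*, which had 7 and 16 counts.

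Rpn4 is made and destroyed by named factors. *HSF1*, *YAP1*, *PDR1* and *PDR3* encode transcription factors that are known to act on the *RPN4* gene, and *UBR2*, *MUB1* and *RAD6* encode the E3 ligase, its partner and the E2 enzyme that mark Rpn4. All 7 were tested and 0 were called by edgeR, with log2 fold changes from -0.66 (*MUB1*) to 2.25 (*YAP1*), and 1 of the 7 had an unadjusted p under 0.05. *YAP1* had 10 and 14 counts at 30°C and 104 and 89 at 42°C (standard error 0.78, adjusted p = 0.141 from edgeR). With a mean count of at least 50, which called 149 higher and 141 lower of 660 transcripts, *YAP1* was called (adjusted p = 0.0466 from edgeR). It was not called in the other alternatives, with an adjusted p of 0.731 (edgeR) without the 42°C library of clone 3. *HSF1*, the heat shock transcription factor, had 33 and 0 counts at 30°C and 34 and 85 at 42°C, and was called higher by edgeR without the 30°C library of clone 3. *UBR2* had 34 and 8, and 6 and 52. *PDR1*, *PDR3*, *MUB1* and *RAD6* had between 0 and 49 counts in any library. Among the proteasome subunits, whose genes Rpn4 is known to activate, all 33 were tested, 23 had a positive log2 fold change and 0 were called. Their median was 0.77, and 1 of the 33 had an unadjusted p under 0.05. Over all 2837 transcripts the median was 0.13, 1510 had a positive value, 577 had an unadjusted p under 0.05 and 7.26% were called. Without the 30°C library of clone 3, edgeR called the subunit gene *RPT3* higher. *PUP1*, a core subunit, had 32 and 39 counts at 30°C and 97 and 119 at 42°C (log2 fold change 0.77, standard error 0.62). *RPN5*, of the regulatory particle, had 64 and 28, and 98 and 249 (log2 fold change 1.03, standard error 0.52). The subunit that DESeq2 called, *RPN11*, had 0 counts in both libraries at 30°C and 17 and 49 at 42°C. Of 11 assembly factors 3 were tested and 0 called, and *BLM10* had the most counts at both temperatures.

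**Figure D4:**
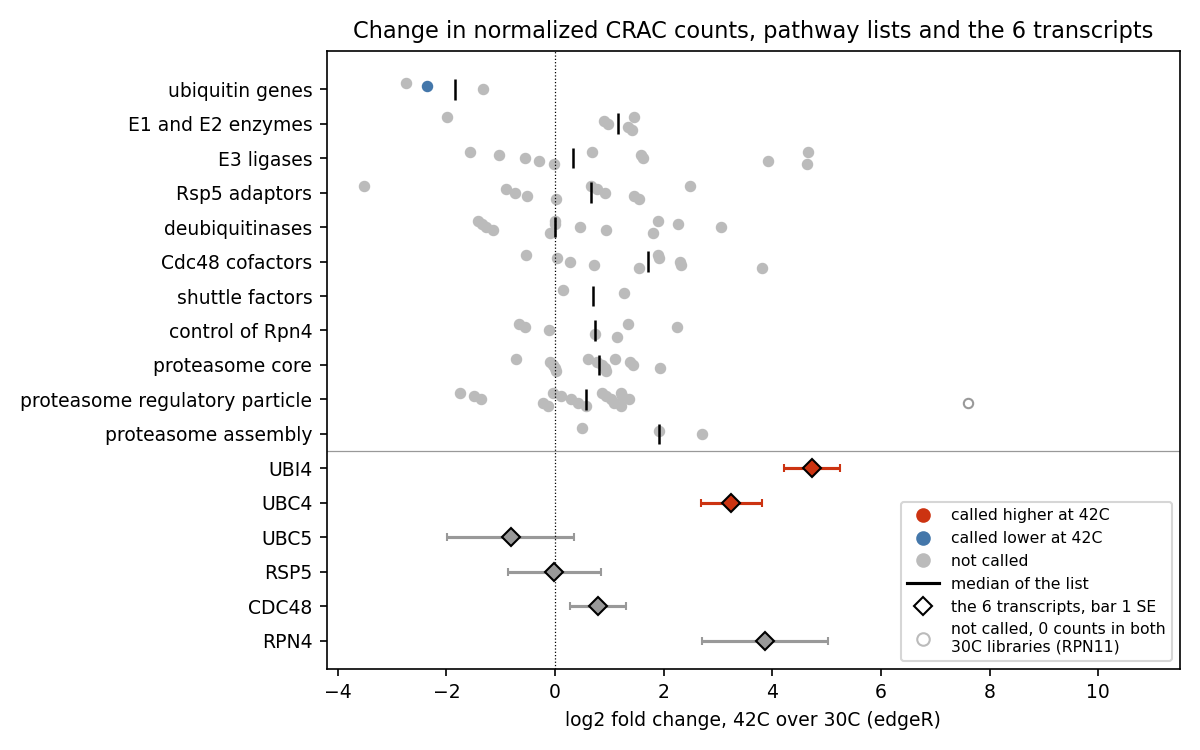
Log2 fold change between 42°C and 30°C (edgeR) of the pathway genes by list (dots, with members left out and short lines at the median of each list with its members) and of the 6 transcripts (diamonds, bars 1 standard error). *UBI4* at 4.73 and *UBC4* at 3.25 are called higher, *RPS31* at -2.36 is called lower, and the other dots are not called. The open dot is *RPN11*, whose fold change has no measured base at 30°C.

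The transcripts most like each of the 6 in pattern were found by distance, that is the Euclidean distance over the 4 Ssd1–HTP libraries between centred log2 CPM values, among transcripts of similar mean level. Such a distance describes 4 points and carries no test. For *UBI4* they were *HSP78*, the mitochondrial disaggregase (distance 0.71), *PIN3* (0.75) and *STI1*, a co-chaperone of Hsp70 and Hsp90 (0.78). For *UBC4* they were *PNC1*, a nicotinamidase (0.36), *CTT1*, the cytosolic catalase (0.38), and *IGD1*, an inhibitor of glycogen debranching (0.52). All 6 of these neighbours, picked for this likeness, were called higher at 42°C, with log2 fold changes from 2.79 (*IGD1*) to 5.15 (*HSP78*). The nearest to *RPN4* were *PHM8* (0.96), *SDH4* (1.16) and *RGI1* (1.47), each with 0 counts in clone 3 at 30°C, as *RPN4* had. Where a transcript has 0 counts, its log2 value is set by the prior count of 2, so these distances depend on that setting. Of these neighbours *RGI1* was called higher (adjusted p = 0.0185 from edgeR). Beside *CDC48* stood *RAS2*, a GTPase of the nutrient-signalling pathway (0.15), the E1 gene *UBA1* (0.23) and *WSC2*, a cell wall sensor (0.26), among 548 candidates. *UBC5* was nearest to *SLN1*, an osmosensor (0.25), *SRP40* (0.27) and the deubiquitinase gene *UBP12* (0.33). Like *UBC5*, these had few counts in clone 3 at 42°C, between 1 and 3, and *SRP40* had 14 in the control. *RSP5* was nearest to *LDB7* (0.17), *HNM1*, a choline transporter (0.32) and *DSE4* (0.40), and 0 of the neighbours of *CDC48*, *UBC5* and *RSP5* were called.

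**Figure D5:**
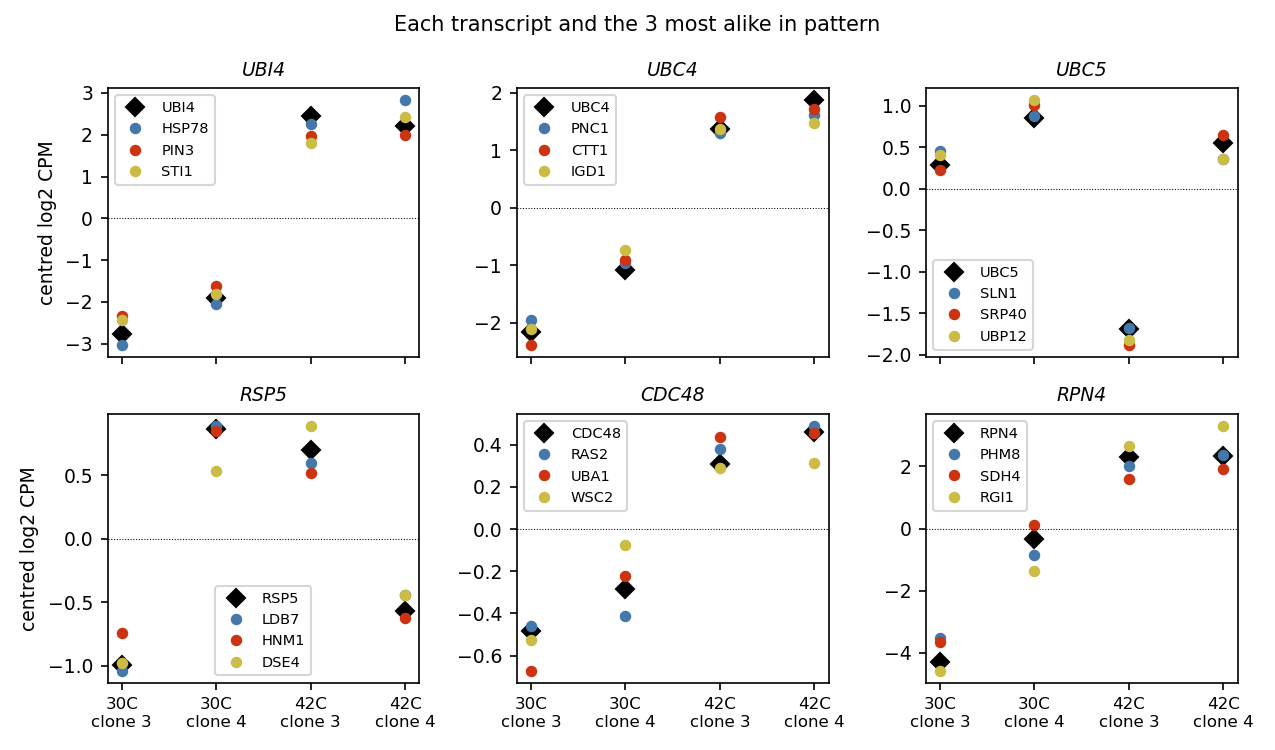
Centred log2 CPM (each transcript minus its mean over the 4 Ssd1–HTP libraries) of each of the 6 transcripts (diamonds) and of the 3 transcripts most like it in pattern (circles). The panels of *UBI4*, *UBC4*, *CDC48* and *RPN4* have both 42°C points above both 30°C points, that of *UBC5* has its lowest point in clone 3 at 42°C, and in that of *RSP5* the clones go opposite ways.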

How the data were processed

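By the study's methods, the authors trimmed adapters (flexbar), split reads by barcode, merged reads with identical inserts and random bases as PCR duplicates, aligned what remained to the yeast genome (Novoalign) and used multiBamCov for read counts on 1 transcript per gene. The authors deposited these counts as whole numbers, not normalized. Build sacCer3 is named in the submitters' processing notes, and the RefSeq table of assembly R64, which holds the same coordinates (876 of the 878 default-length transcripts match it exactly, and the other 4212 intervals contain its coding region), gave all 5090 symbols and the lengths of the untranslated regions. Whether counting used strand is not given in the sources.

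Counts were tested with edgeR 4.0.16 in R 4.3.3 (TMM or library totals, quasi-likelihood, Benjamini-Hochberg, threshold 0.05, mean count of at least 10), with DESeq2 1.42.0 as an alternative, and both were tested on simulated counts. The standard error is the log2 fold change over the square root of F. Permutation tests and exact intervals used scipy 1.17.1, figures matplotlib 3.10.9. Each count was taken as 1 molecule, so intervals and limits cover counting error only.

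The replicate numbers pair the libraries, since a number marks 1 clone, whose samples at both temperatures were, per the labels, joined after barcode ligation. As a check across 2837 transcripts, which are not replicates, the clones' difference at 30°C correlated with that at 42°C at Pearson's r = -0.02. The fit without the block is the main one, because the study's methods name none. The edgeR and DESeq2 p-values rest on the spread between 2 clones, drawn toward the spread of all transcripts tested. They therefore do not measure a transcript's own spread alone. The alternatives changed the normalization, count minimum, test, threshold and block, and left out each library in turn. All 6 members are named, with listed genes that were called, that led their list in counts, that make ubiquitin, act on Rpn4 or partner Cdc48, and the 3 transcripts nearest in pattern. *HUL4*, *RPN11*, *RPT3*, *ROD1* and *RAD23* were named after their values were seen. Members and lists were chosen with earlier results of these data known.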

Additional observations from a re-analysis of the deposited data

How the results depend on the processing

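Between 42°C and 30°C, *UBI4* kept its call and direction in all 11 alternatives, *UBC4* in 10 and *RPN4* was called in 5, with adjusted p from 1.11e-06 to 0.448 (edgeR and DESeq2). With the replicate block, 3 of the 6 were called, *RPN4* being added, and the block changed no other call among the members. The block gave 150 higher and 144 lower of all 2837 transcripts, beside 108 and 98 without it. A mean count of at least 50 between the temperatures gave 149 higher and 141 lower of 660 transcripts, with 3 members higher. At a threshold of 0.01, 1 of the 6 was called, with 40 transcripts higher and 11 lower. DESeq2 called 165 lower, and 174 were higher without a count minimum. With a library left out, 75 to 193 transcripts were higher, 33 to 121 lower and 2 or 3 members higher. The lowest lower count was without the 30°C library of clone 4 and the highest higher count without that of clone 3. The sign of *RSP5* turned without a count minimum (0.10), with the block (0.11), without the 30°C library of clone 4 (1.28) and without the 42°C library of clone 4 (0.53), in a range of -0.77 to 1.28 with a library left out.

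Against the control at 30°C, TMM gave 77 higher and 1 lower, a mean count of at least 50 gave 47 higher, DESeq2 132 lower, and leaving out a library 16 to 28 higher and 26 to 78 lower. At 42°C, TMM gave 200 higher and 3 lower with 3 members higher (*UBI4*, *UBC4* and *CDC48*), and turned the sign of *RSP5* (0.061) and *RPN4* (2.73). A mean count of at least 50 gave 53 lower and DESeq2 205. Leaving out a library gave 61 to 68 higher and 124 to 179 lower, with 1 to 2 members higher and 0 to 1 lower. The causes were not tested. The difference in share of *UBI4* and of *UBC5* between the temperatures kept its sign in every alternative run. The search for the Ssd1 motif was not run, since no sequence was analysed here. Depth limits the control first, where 1 count is 255 CPM.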
